A study of Mus musculus with 135 samples.

Results

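The question addressed here is what repeated social defeat (RSD) did to gene expression in sickle cell mice that were drinking minocycline, and 18 hippocampus libraries bear on it. They were 14 SS + RSD + minocycline libraries and 4 SS + minocycline libraries, 1 from each mouse, out of 66 hippocampus libraries with a known group and 135 libraries in the series. Members were taken by their labels (hippocampus, SS, minocycline) and split by exposure to RSD. A 5th library labelled SS + minocycline, from mouse 9887, held counts identical to those of mouse 9877, an AA mouse with RSD and minocycline, in the hippocampus and in the cortex alike, and was left out.

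All of these animals were male Townes mice, a model in which human globin genes replace the mouse ones. The methods give 6 months as the age of an earlier cohort without the drug, and the age of the minocycline cohort is not given in the sources used here. SS animals carry the sickle form of the beta globin and AA animals the normal form. For RSD, an aggressive male was put into a cage of 3 residents on consecutive evenings. Minocycline, a tetracycline antibiotic that crosses into the brain, was given in the drinking water from before the first defeat until the last. Both groups compared therefore had the SS genotype and the drug, and by their labels differed in RSD only. Tissue was collected after behavioral testing, which followed the end of the drug and included fear conditioning with foot shocks. The libraries therefore show neither the hours right after a defeat nor mice still taking the drug. Below, under minocycline means that the drug was given over the days of RSD. The model also used the hippocampus libraries of 7 SS and 6 SS + RSD mice without minocycline, 31 libraries in all. They served to estimate the spread between mice, against which the p-values weigh a difference between groups. This spread includes differences between sets of libraries, described below.

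Social defeat is a stress to which the hippocampus responds through glucocorticoid receptors, through activity-dependent genes such as Fos and Arc, and through the dentate gyrus, where neurons are born in adult life. Defeat is also known to activate microglia, the resident immune cells of the brain. Minocycline is widely used in rodents to damp microglial activation.

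Hippocampal markers were present in all 18 libraries. Prox1, a dentate granule cell factor, stood at 65.1 to 127 CPM (gene counts relative to library size, scaled by the trimmed mean of M-values) against a mean of 15.6 CPM in the cortex of these groups, and Fibcd1, a CA1 marker, stood at 47.3 to 207 CPM against 9.33 CPM. Ttr, the thyroxine carrier made by choroid plexus, ranged from 7.05 to 1960 CPM in SS + RSD + minocycline and from 8.47 to 569 CPM in SS + minocycline. Depth was 19898354 to 68731008 reads on genes in SS + RSD + minocycline and 23673351 to 64490280 in SS + minocycline. Alas2, the enzyme of heme synthesis in red cell precursors, was at 3.42 CPM in mouse 7078 (SS + RSD + minocycline) and at 37.1 to 204 CPM in the other 30 SS libraries, so the library labelled 7078 stood apart from every other SS library in red cell RNA, and the red cell results are given without it too. Whether its genotype label is right was not tested.

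The libraries fell into sets that the labels do not name. Of the 31 libraries, 7 had 24.5% to 29.1% of reads unmapped, while the highest share in the others was 17.2%. Among the remaining 24, 12 had under 7% of reads outside annotated genes and 12 had more, up to 24% in mouse 9812. The 7 unmapped-rich libraries were mixed in this share. It was 3.98% and 4.47% in the SS + RSD mice 5391 and 9621 and 7.6% to 8.16% in the rest. Where the library set is a term in a fit below, all 7 count as a single set. The SS + minocycline group held 2 mice of the unmapped-rich set (7108 and 7121) and 2 of the low-outside set (9888 and 9889). SS + RSD + minocycline held 1 unmapped-rich mouse (7076), 4 low-outside mice and 9 high-outside mice. The first principal component of log2 CPM, 33.9% of the variance, ran from −101.7 to −86.9 in the unmapped-rich libraries and from 7.6 to 49.6 in the others. Only the low-outside set held at least 2 mice of each group, so a comparison within a set is 4 mice against 2. What the sets stand for is not given in the sources used here.

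**Figure D1:**
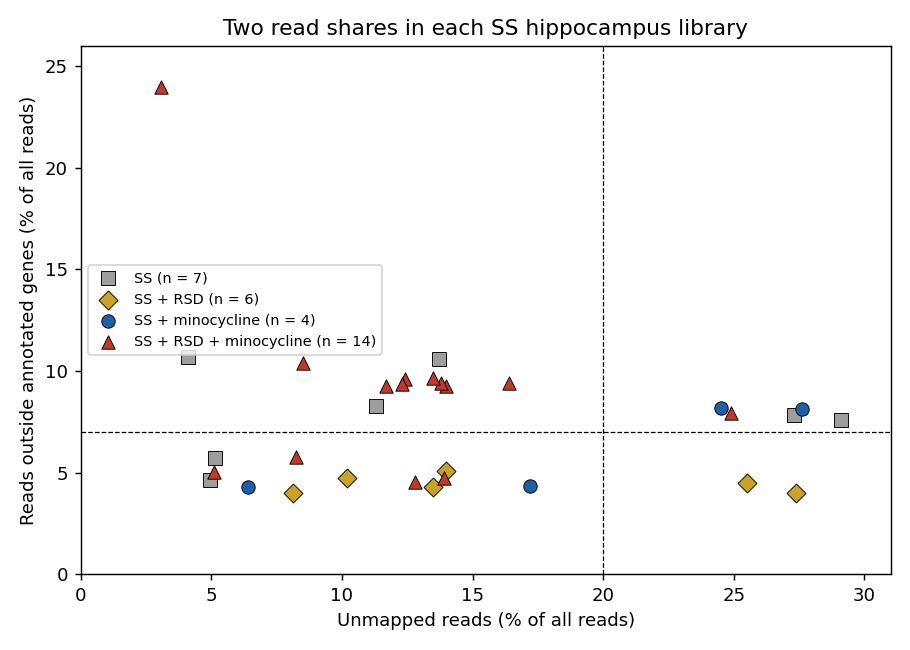
Share of unmapped reads (x axis, percent) against share of reads outside annotated genes (y axis, percent) in each of the 31 SS hippocampus libraries, 1 point per mouse, with dashed lines at 20% and 7%. The 4 SS + minocycline mice split evenly between the unmapped-rich and the low-outside libraries, while 9 of the 14 SS + RSD + minocycline mice lie in the high-outside set, where no SS + minocycline mouse lies.

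No gene was called as different between SS + RSD + minocycline and SS + minocycline hippocampus by edgeR's quasi-likelihood test with Benjamini-Hochberg adjustment. Of 20701 genes tested, 0 (0%) had an adjusted p under 0.05, and the smallest adjusted p was 0.997. At an unadjusted p under 0.05 there were 998 genes (4.82%), 198 higher and 800 lower after RSD. About 1035 would be expected at this threshold if no gene differed. DESeq2 and edgeR's likelihood-ratio test also called 0 genes, with 747 and 993 at an unadjusted p under 0.05.

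In the fit by group, which has no term for the library sets, most expressed genes had narrow intervals. These intervals take no account of shifts between the sets. Of the 14 mice with RSD, 9 lay in a set without any SS + minocycline mouse. Of the 13445 genes whose mean log2 CPM reached 1, 12912 (96%) had a 95% interval that stayed within a 2-fold difference in either direction, and 10778 (80.2%) stayed within 1.5-fold. Over all 20701 genes these shares were 73.3% and 54%. The median log2 fold change was −0.01, as the scaling centres most genes near zero.

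Among expressed genes, the 6 of smallest p that were higher after RSD were Il6ra, B3glct, Sh3bp2, 4933421O10Rik, D130020L05Rik and Zfp760, none of them called. Il6ra, the interleukin-6 receptor chain that also exists in a soluble form, lies at chr3:89771366-89820719 (GRCm39, as are all positions given). It stood at 7.01, 7.09, 7.96 and 8.06 CPM in the 4 SS + minocycline mice. In the 14 mice with RSD it had a lowest value of 7.98, a median of 9.26 and a highest of 11.5 CPM, and 13 of the 14 lay above every SS + minocycline mouse. Its log2 fold change was 0.33 ± 0.09 (SE), a 1.25-fold difference with a 95% interval of 1.10 to 1.43, and an adjusted p of 0.997. The low-outside mice alone gave 0.30 and a fit with the library set as a term gave 0.31. In the 13 mice without minocycline Il6ra had a log2 fold change of 0.01 after RSD.

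B3glct, a glucosyltransferase acting on thrombospondin repeats, stood at 14, 14.9, 16.7 and 17.9 CPM without RSD and had a median of 20.2 CPM, from 14.9 to 32.1, with RSD. Of the 14, 12 lay above all 4 SS + minocycline mice, and the log2 fold change was 0.42 ± 0.14. Sh3bp2, an adaptor protein of immune receptor signalling, stood at 3.39 to 4.86 CPM without RSD and had a median of 5.54 CPM, from 3.19 to 7.29, with RSD and a log2 fold change of 0.44 ± 0.15. Zfp760, a zinc finger protein gene, was above all 4 SS + minocycline mice in 11 of 14 mice, with a log2 fold change of 0.47 ± 0.18. None of these 6 genes turned its sign in any of the 20 other settings tried.

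The 6 lower genes of smallest p were Fkbp10, Gm35082, Fam46c, Acta2, Tagln and E2f2. Fkbp10 (chr11:100305808-100315669), a collagen chaperone of the endoplasmic reticulum, stood at 7.73, 7.76, 10.8 and 12.6 CPM without RSD and had a median of 6.76 CPM, from 5.57 to 9.39, with RSD. Of the 14, 11 lay below all 4 SS + minocycline mice. The log2 fold change was −0.47 ± 0.13 and the adjusted p 0.997. With the library set as a term it was −0.39 ± 0.11. Of its exonic length, 25.5% overlaps exons of the other strand in the GRCm39 annotation, and the strand setting of the counts is not given.

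**Figure D2:**
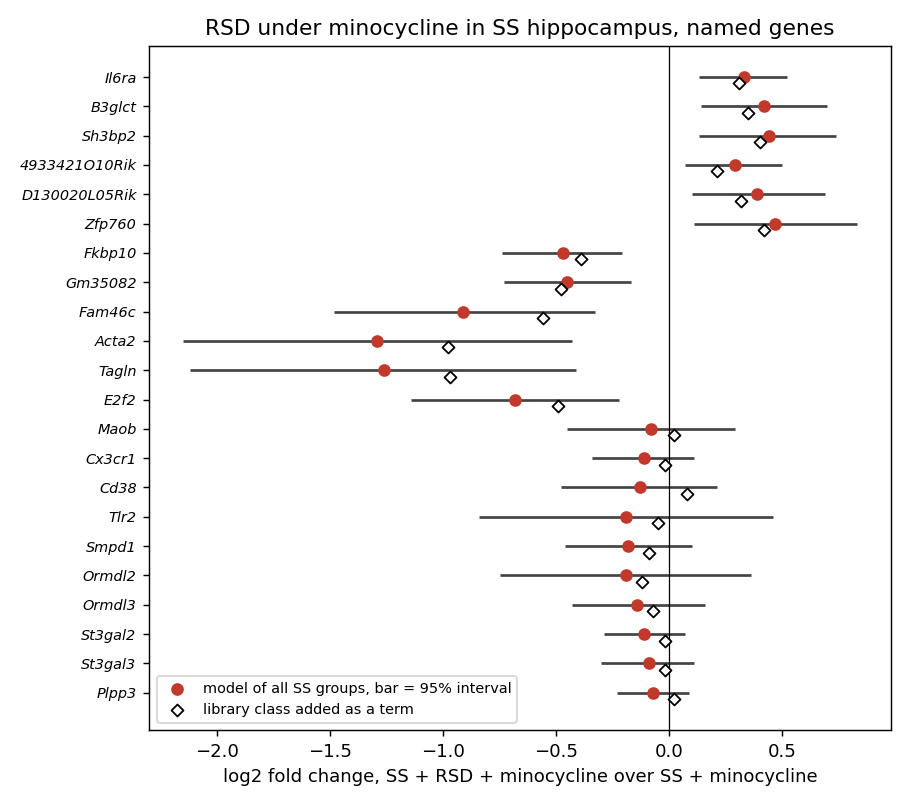
Log2 fold change of SS + RSD + minocycline over SS + minocycline (x axis) for the 12 genes of smallest p and 10 genes tied to microglia, monoamines and sphingolipids (y axis). Filled points are from the model of all SS hippocampus groups with 95% intervals as bars, and open diamonds are from the fit with the library set as a term. Il6ra stands at 0.33 and 0.31 and Acta2 at −1.29 and −0.98.

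Acta2 and Tagln encode contractile proteins of vascular smooth muscle, and 3 further genes of that apparatus, Myh11, Cnn1 and Myl9, also had their 2 highest values in mice 9888 and 9889. These 3 were picked after their values were seen. Acta2 (chr19:34217737-34232990), smooth muscle actin, stood at 7.25 and 8.21 CPM in mice 7108 and 7121 and at 61.5 and 33.4 CPM in mice 9888 and 9889. In the 14 mice with RSD it had a lowest value of 5.88, a median of 10.8 and a highest of 19.9 CPM. All 14 lay below mice 9888 and 9889, while 10 of the 14 lay above mice 7108 and 7121.

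Tagln (chr9:45840909-45847404), an actin-binding protein, was likewise highest in mice 9888 and 9889. It stood at 3.55 and 3.59 CPM in mice 7108 and 7121, at 25.4 and 13.9 CPM in mice 9888 and 9889, and at 2.47 to 7.79 CPM with RSD. Myh11, the smooth muscle myosin heavy chain, stood at 10.4, 10, 42.7 and 22.8 CPM in the same 4 mice and at 6.44 to 15.8 CPM with RSD. For these genes the pair 9888 and 9889 stood above all other mice of both minocycline groups, and mice 7108 and 7121 did not. Such levels also occurred without the drug. Acta2 ran from 5.42 to 58 CPM in SS mice and from 13.5 to 33.9 CPM in SS + RSD mice. The 58 CPM was in the low-outside SS mouse 5349, which also had 26.4 CPM of Tagln and 39.9 CPM of Myh11. Exons of the other strand cover 66.7% of the exonic length of Tagln and 35.1% of that of Cnn1, so their reads may be shared with a neighbour.

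Fitted over all mice, the log2 fold change was −1.29 ± 0.42 for Acta2, −1.26 ± 0.42 for Tagln, −0.94 ± 0.32 for Myh11, −1.44 ± 0.49 for Cnn1 and −0.81 ± 0.30 for Myl9, and no adjusted p was under 0.997. With the library set as a term the values were −0.98, −0.97, −0.85, −1.29 and −0.63. The labels give each mouse a number but name no series. SS mice were grouped here by number into series A (5349 to 5400 and 9615 to 9621), B (5785 to 5883 and 9810 to 9910) and C (7076 to 7121). What this grouping stands for is not given. Among mice of series B, whose 2 mice without RSD are 9888 and 9889, 5 of 19133 genes were called (0.0261%), all lower after RSD: Cnn1 (−2.24), Tagln (−1.91), Acta2 (−1.96), Myh11 (−1.46) and Cpq (−1.17), a secreted peptidase. In that series both mice without RSD were low-outside and 8 of the 12 with RSD were high-outside. Within the low-outside mice none of these 5 was called, at −2.13 for Cnn1, −1.51 for Tagln, −1.50 for Acta2, −1.37 for Myh11 and −1.25 for Cpq, with adjusted p of 0.105 to 0.231. In series C, 2 mice against 2, Acta2 had −0.13, Tagln −0.24 and Cnn1 0.43, with adjusted p of 0.87 to 0.882. Among the low-outside mice, 2 of 18213 genes (0.011%) were called, Gm12663, a processed pseudogene, higher (2.7 to 4.69 CPM with RSD against 0.0423 and 0.0449 CPM) and Hcar1, the lactate receptor, lower (−2.44). The cortex of the same mice gave −0.07 for Acta2 and 0.19 for Tagln.

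Of 13 tested genes of a wider list of smooth muscle contractile genes, drawn up after values were seen, 11 had negative values, the median log2 fold change was −0.74 (−0.01 over all genes tested) and 0 were called. Pericyte genes, which mark the other mural cells of small vessels, had a median of −0.01 over 9 genes, and brain endothelial and barrier genes one of −0.04 over 10. Leptomeningeal fibroblast genes, also listed afterwards, had a median of −0.40 over 12 genes, 9 of them negative. It was −0.72 with the library set as a term, −1.17 in low-outside mice, 0.01 in series C and 0.31 in the cortex. Slc6a13, a transporter of the meninges, stood at 9.65 and 12.1 CPM in mice 9888 and 9889. In the mice with RSD it stood at 3 to 8.05 CPM. The summed level of the leptomeningeal list did overlap, at 112 to 131 CPM in mice 9888 and 9889 and 53.3 to 128 CPM with RSD. In the unmapped-rich SS + minocycline mice that sum was 53.7 to 65.4 CPM, below the median of 80.2 CPM with RSD. In a bulk sample, fewer cells of a type and less RNA per cell cannot be told apart. How far the amount of vessel or meninges taken with each sample bears on these values was not tested.

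**Figure D3:**
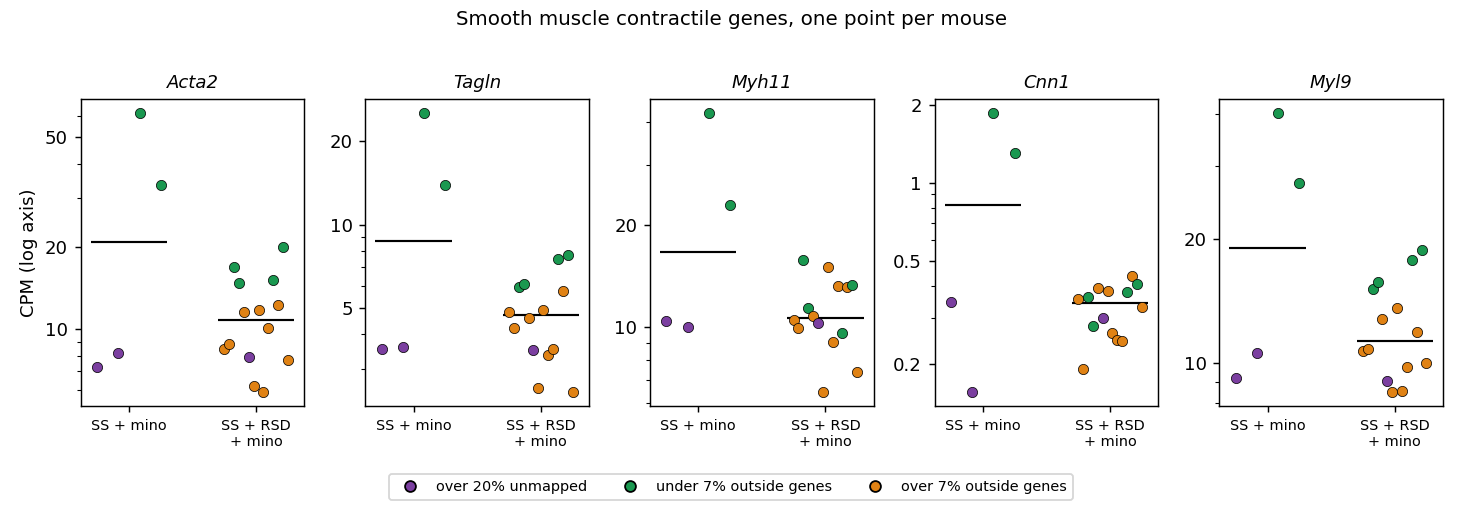
CPM (log axis) of Acta2, Tagln, Myh11, Cnn1 and Myl9 in each of the 4 SS + minocycline and 14 SS + RSD + minocycline mice, with bars at the group medians and colors for the library set. The 2 low-outside SS + minocycline mice lie above every mouse with RSD for all 5 genes, and the 2 unmapped-rich ones lie among or below them.

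The Tagln promoter is printed because a CArG box, the serum response factor element known from smooth muscle genes, occurs in it. The window is the 250 bases before the first base of the canonical transcript, on the minus strand at chr9:45847405-45847654 of GRCm39, and the capitals mark the match, which begins 64 bases before that first base.
Tagln: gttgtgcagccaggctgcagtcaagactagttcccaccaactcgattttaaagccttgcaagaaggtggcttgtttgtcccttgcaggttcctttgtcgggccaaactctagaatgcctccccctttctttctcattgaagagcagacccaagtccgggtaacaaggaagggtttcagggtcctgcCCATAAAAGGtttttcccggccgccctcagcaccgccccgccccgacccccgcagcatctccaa
Only boxes of CC, a core of A and T alone as long as the marked one, and GG were searched. A match to this pattern on either strand is a match on the other, so 1 search covers both. The windows of Acta2, Myh11, Cnn1 and Myl9 held no match, and 304 of 21751 windows of protein-coding genes (1.4%) did. Boxes with another base in the core, and sites outside a window of this size, were not searched.

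Red blood cell genes gave no call, and the median over 10 tested genes was a log2 fold change of −0.83, 8 of them negative, against −0.01 over all genes. Alas2 stood at 49.3 and 58.3 CPM in mice 7108 and 7121 and at 204 and 180 CPM in mice 9888 and 9889. With RSD it had a lowest value of 3.42, a median of 56.2 and a highest of 122 CPM. All 14 mice lay below mice 9888 and 9889, 7 lay above both 7108 and 7121, and 3 lay below both.

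Slc4a1, the anion exchanger of the red cell membrane, had a log2 fold change of −1.16 ± 0.42, and Epb42, a protein of the red cell membrane skeleton, one of −1.39 ± 0.50. Without mouse 7078, which had the lowest value of each, Alas2 had −0.89 ± 0.29, Slc4a1 −1.06 ± 0.33 and Epb42 −1.29 ± 0.45, with an adjusted p of 1 for each. The median of the list was then −0.74, and it was −0.40 with the library set as a term and all mice. Low-outside mice alone gave −0.64, series B −1.28, and series C, which includes mouse 7078, −1.31. Fam46c and E2f2, among the 6 lower genes of smallest p above, stood highest in mouse 9888 too, at 28.7 and 7.15 CPM. In the cortex the list had a median of −0.43, and −0.33 without mouse 7078, with 8 of 9 tested genes negative in both.

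Over 15 glucocorticoid receptor and target genes the median log2 fold change was 0.20, 11 of them positive and 0 called. The classical targets Fkbp5, a chaperone that restrains the receptor, Tsc22d3, known as Gilz, and Sgk1, a kinase, had log2 fold changes of 0.05 ± 0.14, 0.23 ± 0.19 and 0.42 ± 0.26. Hif3a, a hypoxia-inducible factor subunit, and Plin4, a lipid droplet coat protein, were picked from the list after their values were seen. Hif3a (chr7:16764918-16796352) stood at 4.99, 6.13, 7 and 7.53 CPM without RSD and at a median of 14.7 CPM, from 2.96 to 38.1, with RSD.

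Of the 14 mice with RSD, 11 lay above all 4 SS + minocycline mice for Hif3a and 2 lay below all 4. Its log2 fold change was 1.36 ± 0.52, a 2.57-fold difference with a 95% interval of 1.23 to 5.39, at an adjusted p of 0.997. Plin4 stood at 2.71, 4.01, 12.2 and 20.4 CPM without RSD and at a median of 14.5 CPM, from 3.35 to 83.2, with RSD, and had a log2 fold change of 1.42 ± 0.77. Exons of the other strand cover 39.1% of its exonic length. Mouse 9810 was highest for both genes and mouse 9895 lowest for both, and the 7 highest of the 14 mice were the same for Plin4 and Hif3a. In the fit with the library set as a term the values were 0.67 for Hif3a and 0.53 for Plin4, and within the low-outside mice 0.41 and −0.06.

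No neuronal immediate early gene was called. Their median log2 fold change was −0.07 over 14 tested genes, all 14 with a 95% interval within 2-fold. Arc, a synaptic plasticity protein, stood at 89.2, 130, 140 and 145 CPM without RSD and at a median of 97.9 CPM, from 63.8 to 133, with RSD. Its log2 fold change was −0.39 ± 0.18, 5 of 14 mice lay below all 4 SS + minocycline mice, and the cortex gave −0.69. Fos had −0.17 ± 0.26 and Npas4, another activity-dependent factor, 0.32 ± 0.30. Circadian clock genes had a median of 0.02 over 14 tested genes, with Dbp, a clock output factor, at −0.29 ± 0.14 and Nr1d1, a clock repressor, at −0.07 ± 0.12.

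Microglial and inflammatory genes gave no called difference. For homeostatic microglia genes the median log2 fold change was −0.16, 11 of 14 tested genes negative. Cx3cr1, the fractalkine receptor of microglia, stood at 45.5, 48.4, 68.2 and 70.1 CPM without RSD and at a median of 53.5 CPM, from 41.9 to 63.5, with RSD. Its log2 fold change was −0.11 ± 0.11, with a 95% interval of 0.788 to 1.08 on the fold scale. With the library set as a term the median of the list was 0.02, a turn of sign. It was −0.14 in low-outside mice, −0.45 in series B and 0.06 in series C.

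P2ry12, a purine receptor of resting microglia, had 0.02 ± 0.17 and Tmem119, a microglial surface protein, −0.24 ± 0.20. Cytokines and inflammatory signalling genes had a median of −0.13 over 14 tested of 18 listed genes. Tlr2, a receptor for bacterial lipoproteins, was at 0.93 to 2.24 CPM without RSD and 0.70 to 1.84 CPM with it, and Il1b stayed at or under 0.427 CPM in every mouse. Tnf did not pass the filter on low counts. Interferon-stimulated genes had a median of −0.09 over 11 genes, with Isg15, a ubiquitin-like protein, at −0.94 ± 0.54, and neutrophil and lymphocyte markers one of −0.07 over 7.

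Astrocyte genes had a median of −0.11 over 10 genes, with Gfap, the astrocyte filament protein, at −0.36 ± 0.22. Myelin and oligodendrocyte genes had −0.11 as well, 9 of 10 negative, and 0.04 with the library set as a term. Their median was −0.19 in low-outside mice, −0.29 in series B and 0.13 in series C. Maob, the monoamine oxidase of astrocytes, stood at 18.1 to 32.5 CPM without RSD and 17.9 to 33.9 CPM with it, and had a log2 fold change of −0.08 ± 0.18. Cd38, an NAD-consuming enzyme, had −0.13 ± 0.17.

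Neuronal genes gave no call either. Dentate gyrus markers had a median of −0.14 over 5 genes, CA1 markers −0.09 over 4, and CA2 and CA3 markers 0.00 over 6, and all 15 of these genes had intervals within 2-fold. Neurogenesis and proliferation genes had a median of −0.02 over 10 genes, with Dcx, the protein of migrating young neurons, at 0.29 ± 0.33 and Neurod1, a neuronal differentiation factor, at 0.09 ± 0.13. Glutamate receptors and postsynaptic scaffolds had −0.03 over 15 genes, all within 2-fold, with Gria1 at −0.09 ± 0.12 and Grin2a at 0.01 ± 0.12. Interneuron genes had −0.01, serotonin receptors 0.11, neurotrophins and their receptors −0.02, and Bdnf had 0.04 ± 0.18.

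Sphingolipid metabolism genes had a median of −0.04 over 28 tested genes, 27 of them with intervals within 2-fold and 0 called. Smpd1, acid sphingomyelinase, stood at 92.0 to 142 CPM without RSD and 80.6 to 134 CPM with it, with a log2 fold change of −0.18 ± 0.14. Ormdl3, which restrains the first step of sphingolipid synthesis, had −0.14 ± 0.14, its relative Ormdl2 −0.19 ± 0.27, and the sialyltransferases St3gal2 and St3gal3 −0.11 ± 0.09 and −0.09 ± 0.10. Plpp3, a lipid phosphatase, had −0.07 ± 0.08, with a 95% interval of 0.851 to 1.07 on the fold scale. Sirtuin genes had a median of 0.11 over 7 genes, cholesterol synthesis genes −0.07 over 14, heme, iron and antioxidant genes −0.02 over 14, and hypoxia response genes −0.05 over 9. Markers of cortex, striatum and thalamus, tissue that borders the hippocampus, had −0.07 over 14.

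**Figure D4:**
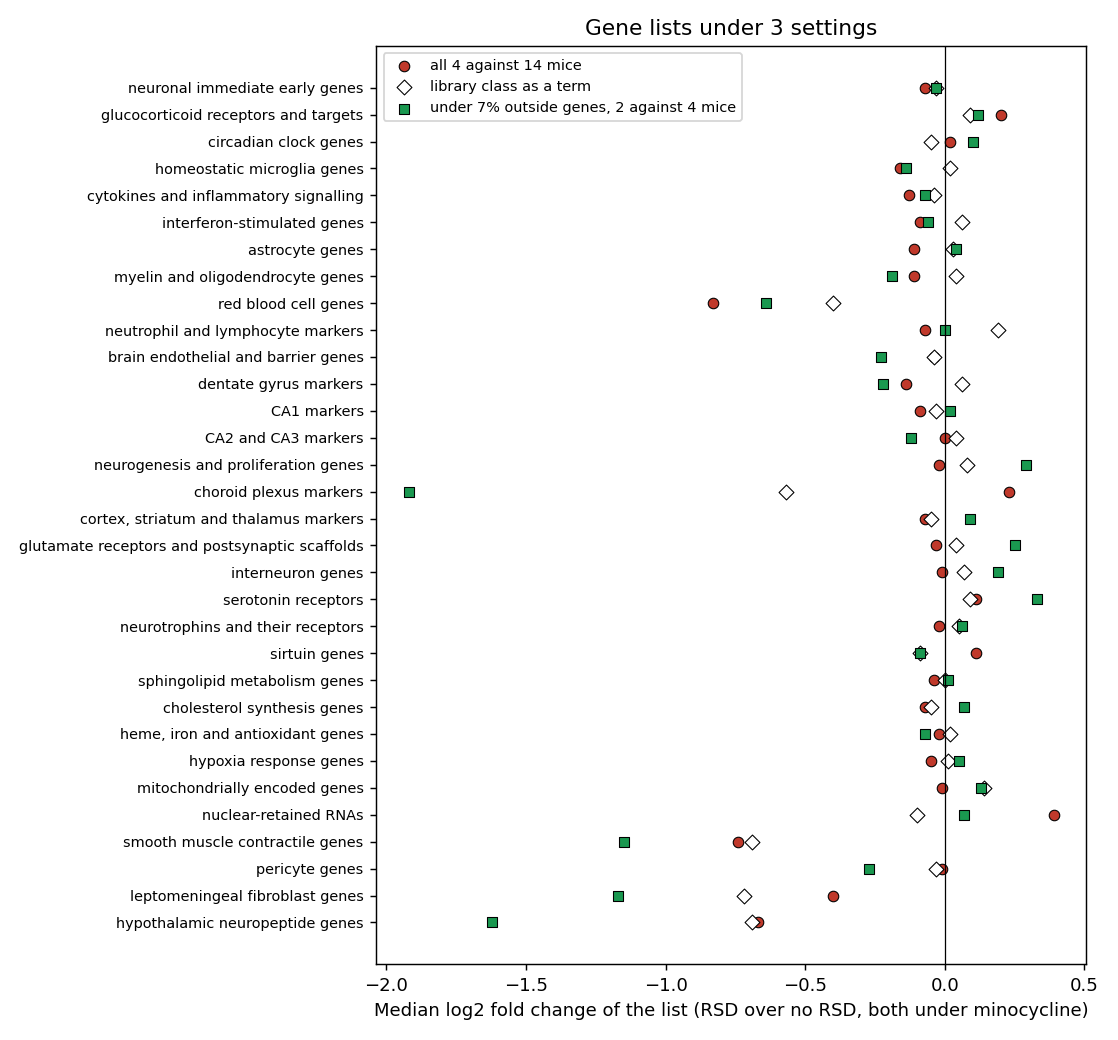
Median log2 fold change, SS + RSD + minocycline over SS + minocycline, of 32 gene lists (y axis) in the model of all SS groups (circles), with the library set as a term (diamonds) and in low-outside mice only (squares). Red blood cell and smooth muscle contractile genes lie furthest below zero in the first setting, at −0.83 and −0.74, and choroid plexus markers go from 0.23 to −1.92 between settings.

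Choroid plexus markers had a median of 0.23 over 10 genes, of −0.57 with the library set as a term and of −1.92 in low-outside mice, and their summed level ran from 25.2 to 2140 CPM with RSD. The sign of this list thus differed with the mice and the terms that entered.

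Mitochondrially encoded genes had a median of −0.01 over 13 genes, yet 4 of the 14 list genes of any kind with an unadjusted p under 0.05 were among them. These 4 were picked for that. mt-Co2, a subunit of cytochrome oxidase, stood at 215 to 415 CPM in the 7 unmapped-rich libraries and at 16.4 to 54.3 CPM in the other 24. In the comparison it had a log2 fold change of −1.71 ± 0.72, and −0.12 with the library set as a term. mt-Co3, mt-Atp6 and mt-Nd4l had −1.76, −1.79 and −2.11, and −0.06, −0.05 and −0.08 with the set as a term. mt-Nd4, a subunit of complex I, had −0.01 ± 0.22. Of these libraries, 2 of 4 SS + minocycline and 1 of 14 with RSD were unmapped-rich.

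Nuclear-retained RNAs had a median of 0.39, all 6 positive and 0 called, and of −0.10 with the library set as a term. Meg3, an imprinted long noncoding RNA, stood at 594 to 1810 CPM in the 14 libraries with under 7% of reads outside genes and at 4030 to 8030 CPM in the 17 with more, and these ranges did not overlap. Its log2 fold change after RSD under minocycline was 0.45 ± 0.57.

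**Figure D5:**
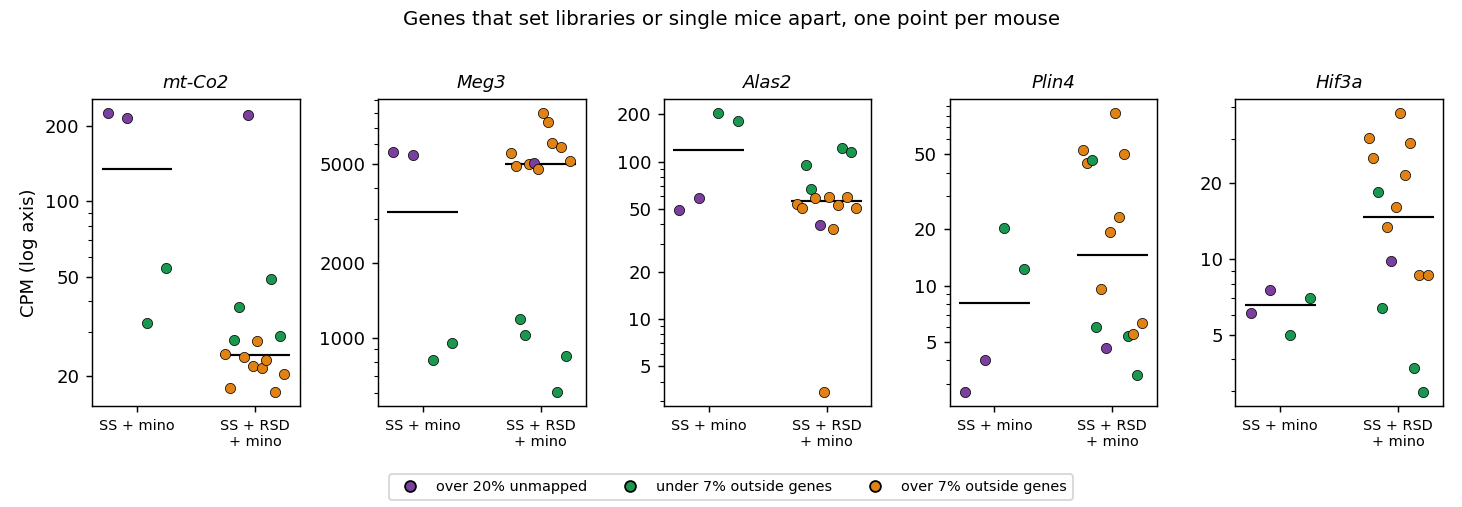
CPM (log axis) of mt-Co2, Meg3, Alas2, Plin4 and Hif3a in each SS + minocycline and SS + RSD + minocycline mouse, with bars at the group medians and colors for the library set. mt-Co2 separates the unmapped-rich mice (215 to 226 CPM here), Meg3 the low-outside mice, and 1 mouse with RSD (7078) has 3.42 CPM of Alas2.

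The effect of RSD under minocycline was then set beside the effect of RSD without it. Without minocycline, 643 of 20701 genes (3.11%) were called in the same model, 20 higher and 623 lower in SS + RSD than in SS mice. The 623 had a median log2 fold change of −1 there, a size raised by picking genes called lower in that contrast. Under minocycline their median was 0.22, and 0 of them were called, as held for all genes tested. The difference between both effects was then tested: edgeR called 0 of 20701 genes (0%), the smallest adjusted p was 0.112, and 3873 had an unadjusted p under 0.05. DESeq2 called 537 genes for that difference and edgeR's likelihood-ratio test 128, while with the library set as a term the quasi-likelihood test called 1.

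Sirt4 and Sirt7, a mitochondrial and a nucleolar sirtuin, were among the genes lower without minocycline, at −1.14 and −0.69 on the log2 scale (adjusted p 0.0438 and 0.0452). Under minocycline they had 0.36 ± 0.30 and 0.16 ± 0.19, and the tests of the difference had adjusted p of 0.118 and 0.126. Meg3 had −2.01 without minocycline (adjusted p 0.0466) and 5 of the 6 nuclear-retained RNAs were called lower there. All 6 SS + RSD libraries had under 7% of reads outside genes, as did 2 of the 7 SS libraries, so in the mice without minocycline this share and RSD moved together. All 6 SS + RSD mice were of number series A, to which no minocycline mouse belonged. With the series as a term, the test of the difference called 0 genes and 1319 had an unadjusted p under 0.05. With the share of reads outside genes as a term it called 0, with 806 at that threshold. The fit with the library set as a term, which called 1, had 774. If no gene differed, about 1035 of the 20701 would be expected there.

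Across the 18 mice, each with a cortex library, the effect of RSD under minocycline was compared between hippocampus and cortex with the mouse as a block. Of 20895 genes, edgeR called 0 (0%), while 254 had an unadjusted p under 0.05 and DESeq2 called 0, and the cortex by itself gave 0 of 19906 (0%), with 816. Il6ra had 0.23 in the cortex against 0.33 in the hippocampus, and Fkbp10 had −0.19 against −0.47. In the fit with the mouse as a block, the difference between tissues was −0.67 for Acta2 and −0.91 for Tagln, at an adjusted p of 1 for each. The values given for each tissue come from separate fits that include mice without minocycline. Subtracting them therefore does not give these differences.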

How the data were processed

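Libraries were made from polyA RNA with a directional kit. The authors aligned reads to GRCm39 with STAR and deposited raw counts per gene for each tissue (GENCODE annotation; its release and the strand setting are not given in the sources used here). Rows for unmapped, multimapping, ambiguous and no-gene reads were kept out of library sizes; reads outside annotated genes made up 4.31% to 24% in the mice compared. Columns of the tables that match no sample (3) were not used.

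Counts were fitted with edgeR 4.0.16 (R 4.3.3), quasi-likelihood test, TMM scaling, filterByExpr with a minimum count of 10, 1 term per group over 31 SS hippocampus libraries, and Benjamini-Hochberg adjustment at 0.05. Intervals are 95% intervals of the fit. DESeq2 1.42.0 was an alternative. The code was tested on simulated data. Hippocampus and cortex were compared with the mouse as a block. Positions and promoters are from GRCm39 with GENCODE vM39, from the reference given.

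The members and gene lists were chosen with earlier results of these data known. Named genes were called genes of largest change, up to 6 of smallest p in each direction whose mean log2 CPM reached 1, the first 3 of each list, and 10 genes of earlier interest; others named were picked after their values were seen. The library sets were also defined after seeing the data.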

Additional observations from a re-analysis of the deposited data

Results flagged for a closer look

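Among 25 sets of values tested with Dixon's ratio in the 4 SS + minocycline mice, 1 held a mouse that stood apart. Gm35082, a predicted gene and 1 of the 6 lower genes of smallest p, was at 4.53 CPM in mouse 9888 and at 3.56 to 3.63 CPM in the other mice, a ratio of gap to range of 0.919, above Dixon's 95% critical value. Chance alone flags about 1 group in 20.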

How the results depend on the processing

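The count of called genes for RSD under minocycline was 0 with RLE size factors, no filter on low counts, the likelihood-ratio test, DESeq2, the number series or the outside share as a term, the library set as a term, the 2 groups alone, series C alone, the identical library kept, and without mouse 7078, mouse 9812 or the unmapped-rich libraries. Leaving out each SS + minocycline mouse gave 0 to 0. It was 998 without adjustment, 5 in number series B alone and 2 in low-outside libraries alone. The difference with and without minocycline gave 3873 genes without adjustment, 128 with the likelihood-ratio test, 537 with DESeq2, 477 with the identical library kept and 1 with the library set as a term, and 0 in its other settings, 0 to 0 with each SS + minocycline mouse left out (SS and SS + RSD mice were not left out in turn). The difference between tissues gave 254 without adjustment and 0 in every other setting run. The cause of these moves was not tested. Of 2253 values of 113 named genes under the alternatives, 260 had the opposite sign and 7 passed the threshold. Settings on the library sets, on mouse 9812 and on the unmapped-rich libraries were chosen after seeing the data. No paired analysis was possible between the RSD groups because their replicate numbers only follow accession order; the comparison of tissues had the mouse as a block. With 4 mice without RSD, the 95% interval of the fit by group stayed within 2-fold for 73.3% of genes.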

Other observations

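Several genes, among them those of smallest p in the low-outside libraries, set mice 9888 and 9889 apart from mice 7108 and 7121, and were picked after their values were seen. Gm12663, a processed pseudogene at chr11:16585109-16586066, was at 0.0423 and 0.0449 CPM in mice 9888 and 9889, at 2.59 and 2.91 CPM in mice 7108 and 7121, and at 0.332 to 4.69 CPM in the 14 mice with RSD. Xaf1, a gene of interferon response and cell death at chr11:72192397-72204559, was at 4.27 and 5.34 CPM in the first pair and at 17.6 and 20.1 CPM in the other pair. Ccl28, a chemokine of epithelia at chr13:120085355-120115895, was at 0.254 and 0.0449 CPM against 4.12 and 1.24 CPM. Its neighbours Tmem267 and 4833420G17Rik, which lie within chr13:119599267-120072595, had 5.71 and 7.13 CPM against 18.3 and 11.4 CPM and 10.5 and 10.9 CPM against 46.5 and 30.1 CPM.

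Other genes ran the opposite way. Hcar1 was at 3.3 and 3.95 CPM in mice 9888 and 9889 and at 0.434 and 0.527 CPM in mice 7108 and 7121. Pmch, the precursor of melanin-concentrating hormone, a peptide of hypothalamic neurons, was at 1.48 CPM in both mice of the first pair, at 0.0599 and 0.139 CPM in the other pair and at 0.0406 to 0.508 CPM in the mice with RSD. Its log2 fold change was −2.02 ± 0.55, its adjusted p 0.997, and its exons lie wholly under exons of the other strand in the annotation. A list of hypothalamic neuropeptide genes drawn up after that had a median of −0.67 over 4 tested genes, 2 of them negative.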
